A study of Mus musculus with 4 samples.

Results

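The G1 cell-cycle genes Ccnd1, Ccnd2, Ccnd3, Ccne1, Ccne2, Cdk2, Cdk4, Cdk6, Cdkn1b and Rb1 were followed in mouse embryonic stem cells, in a control group and a group labelled Chd1-/-. Chd1 is an ATP-dependent chromatin remodeler of transcribed genes. The G1 genes were taken by gene symbol, and all 10 were listed at 1 locus each in both deposited tables, which hold 16553 loci in set 1 and 16967 in set 2. All 10 are among the 10261 genes that were named once in both tables, averaged at least 1 FPKM (a fragment count per transcript length and library depth) over the 4 libraries and entered the test. Cultured embryonic stem cells of the genotype Rosa26CreER;Chd1fl/- carry a tamoxifen-dependent Cre recombinase, 1 conditional and 1 null Chd1 allele. The control group received ethanol and so retains 1 conditional allele beside the null one. The group labelled Chd1-/- received 1 µM tamoxifen for 48 to 72 h, and both groups were then grown for 3 to 5 passages in serum with LIF on gelatin. The recombinase and the null allele are shared by both groups, and exposure to tamoxifen and loss of Chd1 cannot be told apart in this comparison. The protocol describes 2 independently derived lines, and the labels name set 1 and set 2 without tying either to a line, so each group had n = 2 libraries.

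Entry into S phase is driven by cyclin-dependent kinases. D-type cyclins (Ccnd1 to Ccnd3) bind the kinases Cdk4 and Cdk6, E-type cyclins (Ccne1 and Ccne2) bind Cdk2, and both kinds of complex phosphorylate the retinoblastoma protein, which then lets go of E2F transcription factors. Cdkn1b encodes p27, an inhibitor of cyclin E-Cdk2. Mouse embryonic stem cells are known for a short G1 phase, high Cdk2 activity and a largely phosphorylated retinoblastoma protein.

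Equal cell numbers went into each RNA preparation. Synthetic ERCC transcripts were added as 1 µL of a 1:10 dilution, with about 1 µg of RNA given for every library alike. Whether the deposited values compare the groups per cell depends on how these transcripts entered the scaling, which is not given. FPKM summed to between 466994 and 719549 per library, and read depth is unknown. Chd1 measured 27.6 FPKM in control 1 against 5.71 in Chd1-/- 1, and 17.9 in control 2 and 8.52 in Chd1-/- 2. Of 12 embryonic stem cell markers, all 12 were at 1 FPKM or more in every library, among them Pou5f1 (403 to 599 FPKM), Nanog (33.8 to 100.5) and Sox2 (84.2 to 129). The markers of other cells were lower in sum: the 5 listed fibroblast or feeder markers of 8 summed to 2.65 to 8.29 FPKM, with none at 1 FPKM or more throughout. The summed level of the 6 listed trophectoderm markers of 8 was 327 and 57.8 FPKM in the controls and 168 and 36.7 in Chd1-/- cells, mostly from Krt8 and Krt18. The primitive endoderm sum ran from 57.4 to 73.5 FPKM over 4 of 8 markers, mostly Sparc, and the neural sum from 35.1 to 65.1 over 7 of 8. Only 1 of 6 mesoderm markers was listed once in both tables, at 0.332 to 1.67 FPKM. The part that cells of these types have in the values below was not tested. In RNA from whole cultures, fewer cells of a type or cycle phase and less RNA per cell cannot be told apart.

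Most genes had lower values in Chd1-/- cells on the deposited scale, with a median log2 ratio of Chd1-/- over control of -0.46 in set 1 and -0.33 in set 2. The 10 G1 genes were close to that shift, with medians of -0.43 and -0.32. Both Chd1-/- libraries lay under both controls for 7 of the 10, against 52.6% of all tested genes. Lower values in both sets were seen for 9 of 10, against 72.4% of all tested genes. On the deposited scale 1 of the 10 passed the test, Ccnd3, which fell, and none rose (limma with set as a block, Benjamini-Hochberg adjusted p under 0.05). Over all tested genes 9.8% fell and 0.0682% rose by this rule, so 1 of 10 is a share near the background. At an unadjusted p under 0.05, 5 of the 10 passed, against 29.2% of all tested genes. The standard errors come from a variance shared by genes of similar level, and each gene has only 2 pairs. With one common variance for all levels, without set as a block, or under scaling to library totals (each value divided by the sum of its library), Ccnd3 did not pass (adjusted p = 0.288, 0.461 and 0.431), and under that scaling its log2 change was -0.46 in place of -0.85. With one common variance or without the block, 0 of all tested genes passed, and the log2 change of Ccnd3 stayed at -0.85.

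By level, which FPKM makes comparable between genes, the 10 spanned more than 2 orders of magnitude. In control cells Cdk4 was highest at 446 ± 11.5 FPKM (SD, n = 2), followed by Ccne1 at 144 ± 8.09. Ccnd1 at 43.4 ± 9.42 and Ccnd3 at 41.0 ± 1.78 overlapped in range, and Cdk2 lay below them at 31.3 ± 5.11. Cdk6 at 14.8 ± 5.81, Cdkn1b at 13.8 ± 0.657 and Ccne2 at 13.4 ± 0.973 could not be ordered beyond their spread. Rb1 at 2.57 ± 0.0225 and Ccnd2 at 2.26 ± 0.810 were the lowest and overlapped. In Chd1-/- cells the order differed at 2 places. Cdk2 (28.4 ± 6.91) stood above Ccnd3 (22.7 ± 1.02), and Ccne2 (10.4 ± 0.430) above Cdkn1b (8.79 ± 2.33), the latter pair overlapping in range. These levels are set across tables that were made separately for each set.

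**Figure D1:**
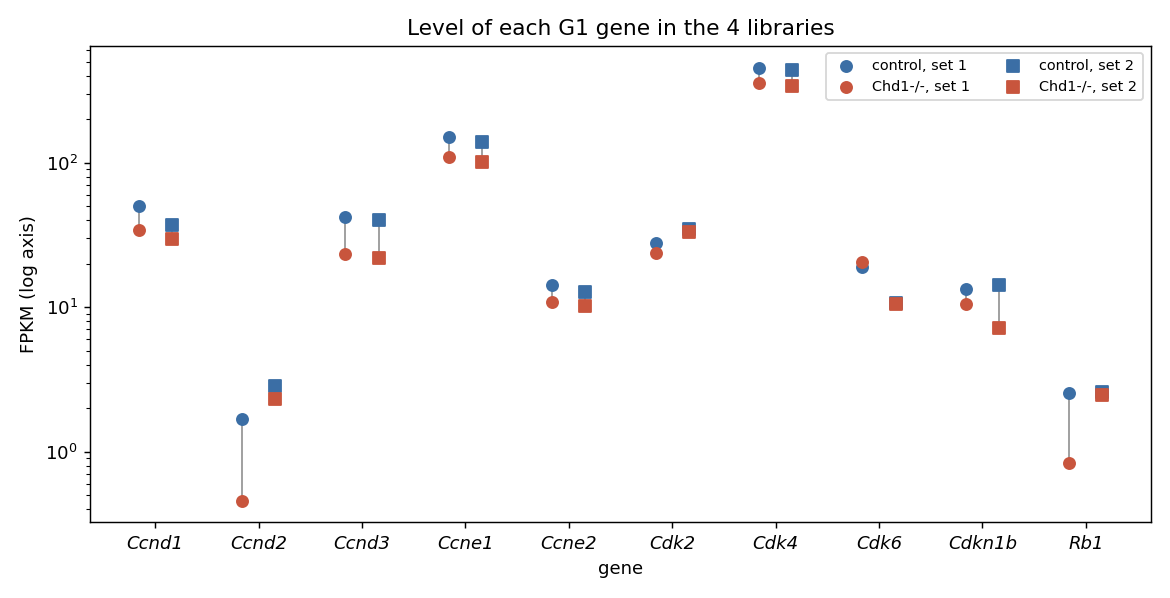
FPKM on a log axis for each of the 10 genes in the 4 libraries, with circles for set 1, squares for set 2, blue for control and red for Chd1-/-, and a line joining the libraries of a set. Cdk4 and Ccne1 stand above all others, Ccnd3 drops by nearly the same distance in both sets, and Ccnd2 and Rb1 drop mainly in set 1. Of these, Cdk4 turns from lower to higher mean values under scaling to library totals, as do Ccne2 and Cdk2.

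The D-type cyclins bind Cdk4 and Cdk6 and link growth factor signals to the cycle. Ccnd3 measured 42.3 FPKM in control 1 against 23.4 in Chd1-/- 1, and 39.8 in control 2 and 21.9 in Chd1-/- 2. The groups did not overlap, and 55.3% of the control value was left in set 1 and 55.1% in set 2. Ccnd3 fell by 0.85 on the log2 scale (limma SE 0.20, n = 2 pairs, adjusted p = 0.0013), with log2 ratios of -0.85 and -0.86. The change relative to the median gene was -0.46 (SE 0.23, 95% interval -0.90 to -0.02, unadjusted p = 0.0417) and did not pass adjustment over all genes (adjusted p = 0.755). In this relative comparison, where each set's median log2 ratio is subtracted, 0 of the 10 genes fell or rose, against 0.214% and 0.146% of all tested genes, and 1 of the 10, Ccnd3, had an unadjusted p under 0.05, against 6.29% of all. The annotation GENCODE M21 has the ribosome biogenesis gene Bysl on the opposite strand, overlapping Ccnd3, and a processed pseudogene, Ccnd3-ps, elsewhere in the genome. The sources used here do not say how the reads of such copies or of the other strand were assigned.

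Ccnd1 measured 50.1 FPKM in control 1 against 34.0 in Chd1-/- 1, and 36.8 in control 2 and 29.6 in Chd1-/- 2. Both Chd1-/- libraries lay under both controls, but the log2 change of -0.44 (SE 0.19) did not pass adjustment (adjusted p = 0.113), and relative to the median gene it was -0.04. The log2 ratio of control 2 over control 1 was -0.45, as large as that change. Ccnd2 was low, at 1.69 FPKM in control 1 and 0.457 in Chd1-/- 1, and at 2.84 and 2.31 in set 2. The groups overlapped, and its log2 ratios were -1.68 and -0.29. The mean of -0.98 (SE 0.60, 95% interval -2.17 to 0.20) did not pass (adjusted p = 0.254), and it was -0.55 with a pseudocount of 1.

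Summed over the 3 genes, D-type cyclin RNA was 94.1 FPKM in control 1 and 57.8 in Chd1-/- 1, and 79.4 and 53.8 in set 2. That is 61.4% of control in set 1 and 67.8% in set 2. Within the sum, Ccnd3 made up 45.0% of the sum in control 1 and 40.4% in Chd1-/- 1, and 50.1% and 40.8% in set 2. The ratio of Ccnd1 to Ccnd3 within a library, which does not depend on how libraries were scaled to each other, was 1.18 in control 1 and 1.45 in Chd1-/- 1, and 0.924 and 1.35 in set 2. Its log2 change was 0.30 in set 1 and 0.54 in set 2 (mean 0.42 ± 0.18, SD, n = 2). Both sets moved the same way, and the mean was larger than the SD, but the controls also differed from each other (1.18 and 0.924). The ratio uses the same Ccnd3 values as the test above and is not separate support for it. No test was run on this ratio.

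Promoter sequences were matched in RefSeq (build GRCm38.p6) for 6 of the 10 genes, at 7 start sites. The 250 bases before a start site were searched on both strands for the E2F motif (TTTCCCGC, TTTCGCGC, TTTGCCGC or TTTGGCGC), the E-box CACGTG bound by Myc and other factors, and the GC box GGGCGG bound by Sp factors. Of 32851 promoters of the same length 1.86% hold the E2F motif, 6.02% the E-box and 32.7% the GC box. Ccnd3 has 2 annotated starts and is shown because it was the member that passed the test; the capitals mark the GC boxes, here as the reverse complement CCGCCC. Neither stretch holds the E2F motif or the E-box.
Ccnd3, chr17:47504801-47505050, plus strand: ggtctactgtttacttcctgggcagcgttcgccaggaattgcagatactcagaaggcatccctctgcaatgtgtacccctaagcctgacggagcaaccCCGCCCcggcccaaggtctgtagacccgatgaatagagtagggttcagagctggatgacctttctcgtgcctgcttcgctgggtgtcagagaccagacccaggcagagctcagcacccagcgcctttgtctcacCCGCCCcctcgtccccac
Ccnd3, chr17:47593217-47593466, plus strand: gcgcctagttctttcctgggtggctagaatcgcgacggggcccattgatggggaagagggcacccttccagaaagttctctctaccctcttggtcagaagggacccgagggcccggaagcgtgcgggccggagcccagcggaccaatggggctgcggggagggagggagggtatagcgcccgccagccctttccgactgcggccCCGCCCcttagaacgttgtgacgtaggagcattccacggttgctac
Cdk4, the highest member, has 4 E-boxes in its stretch (capitals), and Cdk2 is the one matched member with an E2F motif, marked in capitals as its reverse complement GCGGGAAA.
Cdk4, chr10:127063285-127063534, plus strand: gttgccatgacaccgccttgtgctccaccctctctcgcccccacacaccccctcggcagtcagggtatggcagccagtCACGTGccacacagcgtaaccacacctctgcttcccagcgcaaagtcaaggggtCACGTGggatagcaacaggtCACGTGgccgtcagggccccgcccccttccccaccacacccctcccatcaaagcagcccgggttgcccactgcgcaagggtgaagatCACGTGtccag
Cdk2, chr10:128705052-128705301, minus strand: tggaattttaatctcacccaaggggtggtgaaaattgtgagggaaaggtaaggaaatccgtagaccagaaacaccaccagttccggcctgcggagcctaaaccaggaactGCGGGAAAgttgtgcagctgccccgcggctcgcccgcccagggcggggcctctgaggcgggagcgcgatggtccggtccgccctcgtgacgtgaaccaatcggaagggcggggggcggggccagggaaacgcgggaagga
Among the other matched stretches, that of Cdk6 holds 1 E-box, that of Ccne1 holds 4 GC boxes and that of Cdkn1b holds 1 GC box. The Cdk2 stretch also holds 5 GC boxes and the Cdk4 stretch 1, left in lower case. These matches describe the letters only.

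The E-type cyclins activate Cdk2 at the G1 to S transition. Ccne1 measured 149.8 FPKM in control 1 against 108 in Chd1-/- 1, and 138 in control 2 and 101 in Chd1-/- 2. The groups did not overlap and the sets were close to each other, with 72.3% and 73.4% of control left. The log2 change of -0.46 (SE 0.17, 95% interval -0.79 to -0.12) missed the threshold (adjusted p = 0.0607), and relative to the median gene it was -0.06 (95% interval -0.51 to 0.39). Ccne2 measured 14.1 FPKM in control 1 against 10.7 in Chd1-/- 1, and 12.7 and 10.1 in set 2. Its log2 change of -0.36 (SE 0.25) did not pass (adjusted p = 0.314), and under scaling to library totals the value turned to 0.04.

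The proportion of the E-type cyclins to each other was nearly the same in all 4 libraries. Ccne1 exceeded Ccne2 10.6-fold in control 1, 10.1-fold in Chd1-/- 1, 10.9-fold in control 2 and 10.0-fold in Chd1-/- 2. The log2 change of this ratio was -0.10 ± 0.03 (SD, n = 2), and Ccne1 made up 90.9% to 91.6% of E-type cyclin RNA. The ratio of Ccne1 to Ccnd1 was 2.99 in control 1 and 3.19 in Chd1-/- 1, and 3.76 and 3.43 in set 2. Its log2 changes of 0.09 and -0.13 went opposite ways, so no common direction was seen.

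The kinases showed smaller log2 changes than Ccnd3. Cdk4, the partner of the D-type cyclins, measured 454 FPKM in control 1 against 355 in Chd1-/- 1, and 438 and 337 in set 2, and 98.5% of tested genes had a lower level. The groups did not overlap, with 78.1% and 77.1% of control left, but the log2 change of -0.37 (SE 0.17) did not pass (adjusted p = 0.146) and was 0.03 under scaling to library totals. In GENCODE M21 genes on the opposite strand overlap several members, Tspan31 for Cdk4, Pmel for Cdk2 and Ints8 for Ccne2. Rb1, a member of low level, is overlapped by Lpar6 and Rcbtb2 on the opposite strand and by Gm17233 and Mir687 on the same strand.

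Cdk2, the kinase of E-type cyclins, measured 27.7 FPKM in control 1 against 23.5 in Chd1-/- 1, and 34.9 and 33.3 in set 2. The groups overlapped, because both libraries of set 2 were above control 1. The log2 change was -0.15 (SE 0.20, 95% interval -0.54 to 0.23, adjusted p = 0.576), and it was 0.24 under scaling to library totals. Cdk6, the other partner of the D-type cyclins, measured 18.9 FPKM in control 1 against 20.5 in Chd1-/- 1, and 10.7 and 10.6 in set 2. It was the member with a higher value in Chd1-/- cells in a set, by a log2 ratio of 0.11, against -0.02 in set 2. The mean log2 change was 0.05 (95% interval -0.42 to 0.51, adjusted p = 0.899), and the log2 ratio of control 2 over control 1 was larger in size, at -0.82.

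Both Cdk2 and Cdk6 lay above the median gene in each set, by 0.22 and 0.26 for Cdk2 and by 0.57 and 0.31 for Cdk6 on the log2 scale. Neither passed the relative test (adjusted p = 0.998 and 0.852). With Ccne2, above by 0.07 and 0.0025, 3 of the 10 lay above both medians, beside 24.6% of all tested genes. The ratio of Cdk6 to Cdk4 within a library was 0.0417 in control 1 and 0.0577 in Chd1-/- 1, and 0.0245 and 0.0313 in set 2, a log2 change of 0.41 ± 0.08 (SD, n = 2). The ratio of Cdk2 to Cdk4 was 0.0611 in control 1 and 0.0663 in Chd1-/- 1, and 0.0798 and 0.0986 in set 2. It moved by 0.12 and 0.30 on the log2 scale. For both ratios the groups overlapped, because the controls differed between the sets. Cdk4 nevertheless made up 88.5% to 90.7% of the summed RNA of the 3 kinases in every library.

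**Figure D2:**
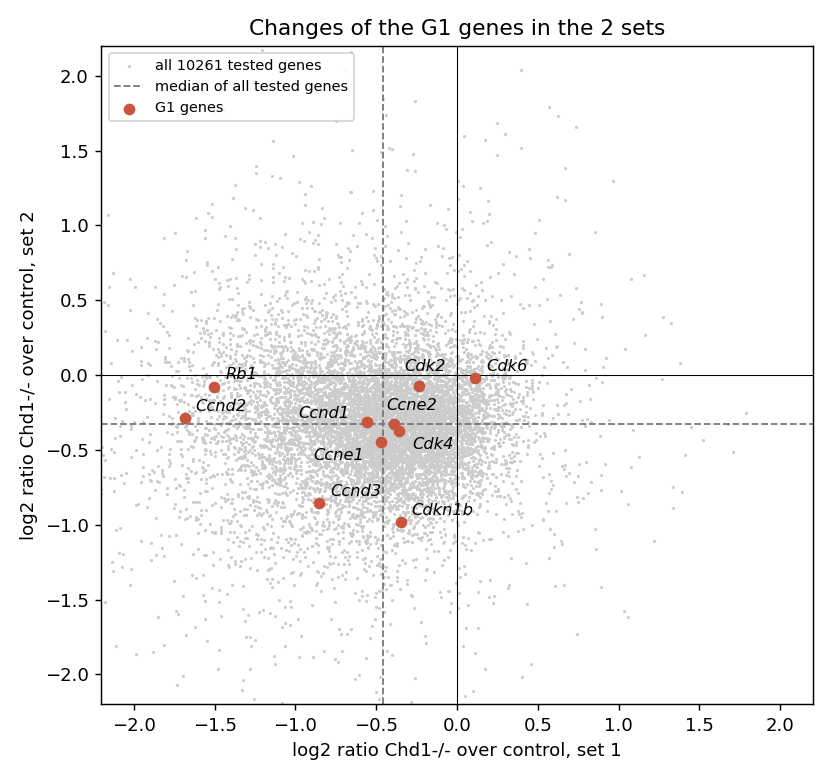
Log2 ratio of Chd1-/- over control in set 1 (horizontal) and set 2 (vertical) for the 10 G1 genes in red and all 10261 tested genes in grey, with dashed lines at the medians of all genes, -0.46 and -0.33. Ccnd3 lies below both medians, Cdk2 and Cdk6 above both, Ccnd2 and Rb1 far to the left in set 1 alone and Cdkn1b far down in set 2 alone. Genes beyond 2.2 on either axis are outside the plot, and under scaling to library totals the mean changes of Ccne2, Cdk2 and Cdk4 turn from lower to higher.

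Cdkn1b and Rb1 restrain the step into S phase. Cdkn1b, encoding the inhibitor p27, measured 13.3 FPKM in control 1 against 10.4 in Chd1-/- 1, and 14.2 in control 2 and 7.14 in Chd1-/- 2. The groups did not overlap, but 78.5% of control was left in set 1 and 50.2% in set 2. The log2 change of -0.67 (SE 0.26, 95% interval -1.17 to -0.16) did not pass (adjusted p = 0.0731), and the log2 ratios of -0.35 and -0.98 had an SD of 0.45. The ratio of Cdkn1b to Cdk2 was 0.480 in control 1 and 0.444 in Chd1-/- 1, against 0.407 and 0.215 in set 2. Its log2 change of -0.52 ± 0.57 (SD, n = 2) was smaller than its spread between the sets, and so was that of Ccne1 to Cdkn1b, 0.21 ± 0.47.

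Rb1, the retinoblastoma gene, measured 2.55 FPKM in control 1 against 0.836 in Chd1-/- 1, and 2.58 in control 2 and 2.44 in Chd1-/- 2. The controls were alike and the library Chd1-/- 1 stood apart, with 32.8% of control left in set 1 and 94.6% in set 2. The mean log2 change of -0.79 (SE 0.54, 95% interval -1.85 to 0.27) did not pass (adjusted p = 0.304), and it was -0.50 with a pseudocount of 1. The related pocket protein gene Rbl1 was at 6.18 FPKM in control 1 and 4.26 in Chd1-/- 1, and at 7.08 and 4.37 in set 2. The ratio of Rb1 to Rbl1 moved by -1.07 on the log2 scale in set 1 and by 0.61 in set 2, so it had no common direction.

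The members with the lowest levels had the largest differences between the sets. In set 1 genes of low level had lower ratios as a rule, and 2.66% and 4.77% of tested genes had a lower ratio than Ccnd2 and Rb1, against 55.4% and 76.7% in set 2. After the trend of the ratio on level was removed within each set, Ccnd2 stood at -0.68 and -0.06 on the log2 scale and Rb1 at -0.60 and 0.15. Ccnd3 stood at -0.54 and -0.48 after the same step, Cdk6 at 0.47 and 0.33, and Cdkn1b at 0.08 and -0.64. Ccnd3 was thus below the level trend by similar amounts in both sets and Cdk6 above it, though none of the 10 passed the test on the detrended values.

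**Figure D3:**
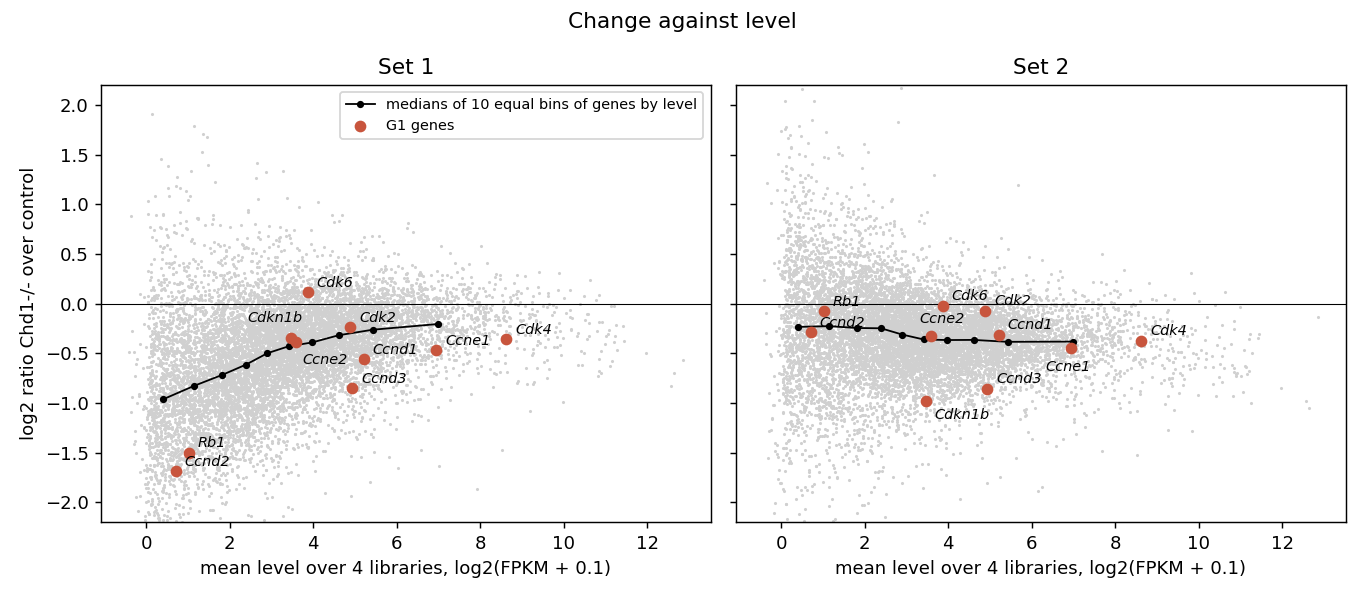
Log2 ratio of Chd1-/- over control against the mean level over the 4 libraries, as log2(FPKM + 0.1), in set 1 (left) and set 2 (right), with the G1 genes in red, all tested genes in grey and the medians of 10 equal bins of genes by level in black. In set 1 the medians climb with level and Ccnd2 and Rb1 lie at the low end, while in set 2 the medians change less. The trend fitted in set 2 falls with level, opposite to that in set 1. Ccnd3 lies below and Cdk6 above the black line in both panels, and the plot is limited to ratios between -2.2 and 2.2.

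The genes whose 4 values were most like those of Ccnd3 were Mbd3, the junction protein gene Cgnl1 and the scaffold protein gene Slc9a3r1, by the Euclidean distance between log2 values with each gene's mean removed (0.03, 0.05 and 0.06 over 4 libraries). Mbd3, a subunit of the NuRD remodeler, stood at 52.9 and 30.1 FPKM in control 1 and Chd1-/- 1, and at 49.9 and 27.5 in set 2. With 10261 genes and 4 libraries, such closeness is a description only.

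The rest of the pathway was covered by 7 lists with 70 genes, of which 64 were tested. On the deposited scale 13 of the 64 fell and 0 rose, that is 20.3% fell against 9.8% of all tested genes, and 26 had an unadjusted p under 0.05, against 29.2% of all tested genes. Relative to the median gene 0 fell and 0 rose, with 5 at an unadjusted p under 0.05, against 6.29% of all tested genes. The 64 had median log2 ratios of -0.45 (set 1) and -0.40 (set 2), beside -0.46 and -0.33 for all tested genes. With a mean of at least 5 FPKM required, 3 of 55 fell, while over all genes the count that fell went from 1006 to 225. Under scaling to library totals 2 of 64 fell, while over all genes that scaling gave 37 that fell and 50 that rose.

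Of 20 E2F target genes, 7 fell and 18 had lower values in both sets, beside 9.8% and 72.4% of all tested genes. Those shares are not matched for level, and the limma SE was smaller at high level (0.17 for Cdt1, 0.43 for the lower Myb). Relative to the median gene 0 of the 20 fell and 0 rose, against 0.214% and 0.146% of all tested genes. The 20 had median log2 ratios of -0.45 (set 1) and -0.51 (set 2). Cdt1, which loads the replicative helicase, measured 131 FPKM in control 1 against 60.9 in Chd1-/- 1, and 108 and 60.0 in set 2, and fell by 0.98 (limma SE 0.17, adjusted p = 5.3e-06). The groups were wide apart in both sets. The helicase subunits Mcm2 (by 0.67, adjusted p = 0.0044) and Mcm4 (by 0.65, adjusted p = 0.0113), the ribonucleotide reductase subunit Rrm2 (by 0.62, adjusted p = 0.0090) and the licensing factor Cdc6 (by 0.70, adjusted p = 0.0235) fell as well in limma. The other 2 were Mcm6 and Uhrf1, named after their values were seen, with adjusted p of 0.0474 and 0.0490.

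Of 5 tested genes of the list of the MuvB core and B-Myb, 1 fell. Over all tested genes 9.8% fell. Mybl2, encoding B-Myb, measured 120 FPKM in control 1 against 61.8 in Chd1-/- 1, and 134 and 70.0 in set 2, and fell by 0.95 (limma SE 0.17, adjusted p = 1.1e-05). Its log2 ratios of -0.96 and -0.94 were close to each other. None of the 12 pocket protein, E2F and DP genes passed in limma, also at an unadjusted p under 0.05. By that unadjusted rule 29.2% of all tested genes passed. The largest mean log2 changes with the same sign in both sets were those of E2f2 (-1.03, adjusted p = 0.322), Rbl2 (-0.88, adjusted p = 0.365) and E2f3 (-0.70, adjusted p = 0.192). E2f2 and Rbl2 were low, at 0.478 to 1.68 and 0.744 to 2.48 FPKM.

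Of 4 tested other CDK inhibitors none passed in limma, 0 at an unadjusted p under 0.05 on the deposited scale. The shares over all tested genes were 9.8% for a fall past adjustment and 29.2% for an unadjusted p under 0.05. Cdkn2a, the locus of p16 and p19ARF, measured 6.16 FPKM in control 1 against 6.29 in Chd1-/- 1, and 3.07 and 6.13 in set 2 (log2 change 0.50, adjusted p = 0.300). Relative to the median gene its log2 change was 0.90 in limma (95% interval 0.28 to 1.52, unadjusted p = 0.0045, adjusted p = 0.355). Cdkn2b, encoding p15, was at 1.92 and 1.12 FPKM in set 1 and at 1.88 and 1.11 in set 2 (log2 change -0.71, adjusted p = 0.411). Cdkn1c, encoding p57, had a log2 change of -0.21 (adjusted p = 0.421).

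Of 8 genes of CDK activation and its inhibitory phosphorylation, 2 fell in limma. Pkmyt1, a kinase that inhibits Cdk1, fell by 1.43 (SE 0.37, adjusted p = 0.0048), mostly in set 1, where it went from 5.76 to 1.10 FPKM against 9.13 to 6.14 in set 2. Cdc25c, a phosphatase that activates Cdk1, fell by 0.72 (SE 0.24, adjusted p = 0.0307). Of 10 tested genes of cyclin and inhibitor turnover 2 fell, the deubiquitinase Usp28 by 1.05 (adjusted p = 0.00047) and Fzr1, the Cdh1 activator of the anaphase-promoting complex, by 0.69 (adjusted p = 0.0304). Of 5 tested S and M phase cyclins and Cdk1, all 5 had lower values in both sets and 1 fell, Ccnf, by 0.51 (adjusted p = 0.0485). The shares over all tested genes were 72.4% for lower values in both sets and 9.8% for a fall past the test.

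**Figure D4:**
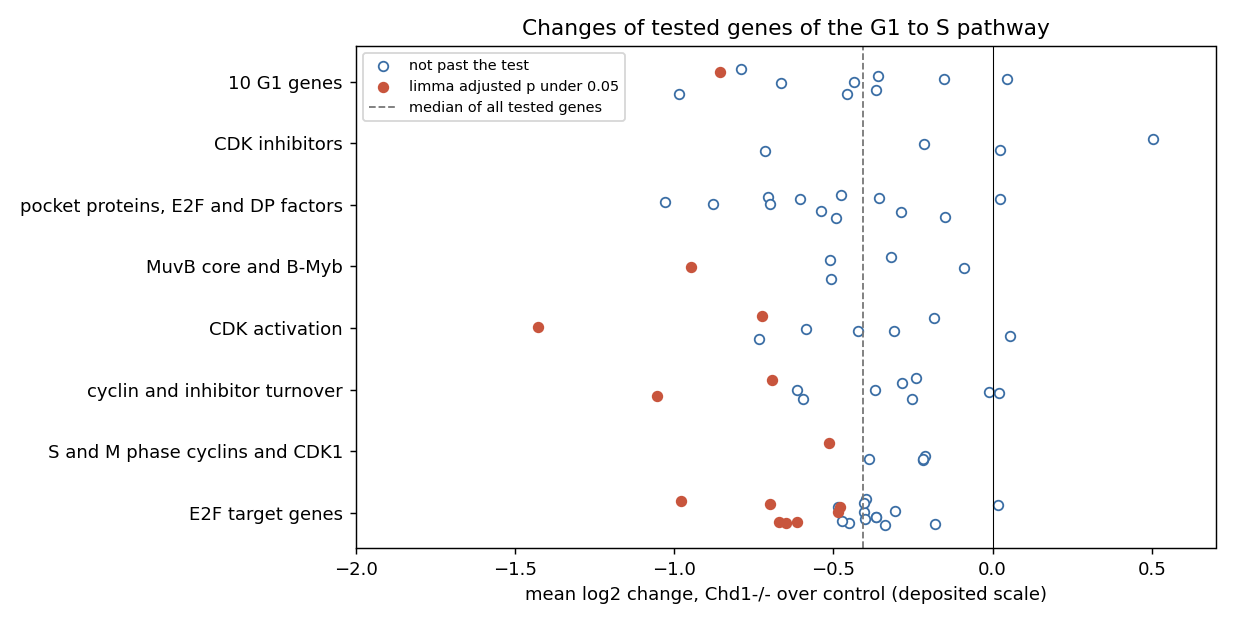
Mean log2 change of Chd1-/- over control on the deposited scale for the 10 G1 genes and the 64 tested genes of the 7 pathway lists, one point per gene, spread vertically only for legibility. Filled points passed limma at an adjusted p under 0.05, all of them below the dashed line at the median of all tested genes, -0.41. Under scaling to library totals 2 of the 64 pathway genes fell, and the mean changes of Ccne2, Cdk2 and Cdk4 turn from lower to higher.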

How the data were processed

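The authors deposited 1 table per set, whose values were taken as FPKM. No header names the unit, and the choice rests on the values and on the programs in the submitters' processing notes (Cufflinks 2.2.0, Cuffdiff, TopHat and TopHat2 2.0.10, with build mm9). How the ERCC transcripts entered the scaling is not given in the sources used here. A ratio column deposited by the authors matched the quotient of its neighbours (largest relative difference 4.97e-06). Tables were joined by symbol, leaving out loci without a symbol, with several genes, or with a repeated symbol. Values were tested as log2(FPKM + 0.1), which understates changes of low genes, in genes with a mean of at least 1 FPKM. The test was limma 3.58.1 in R 4.3.3 with set as a block and a variance trend, two-sided, Benjamini-Hochberg adjusted over 10261 genes; the prior degrees of freedom were infinite. P-values therefore rest on a spread shared by genes of similar level. The block was used since the tables were made set by set; libraries of a set deviated together across genes (r = 0.483). The relative comparison subtracted each set's median log2 ratio. Alternatives changed the pseudocount, the low-value filter, the block, the variance model, repeated symbols, the scaling and the centring. The genes and lists were chosen with earlier results of these data known. Named pathway genes were those past the test, at most 5 a list, or else up to 3 with the largest change of one sign.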

Additional observations from a re-analysis of the deposited data

How the results depend on the processing

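On the deposited scale the count of G1 genes past the test stayed at 1, Ccnd3, with a pseudocount of 1 or 0.01, a mean of at least 5 FPKM, no filter on low values and FPKM summed over repeated symbols. It was 0 without the replicate block, 0 with one common prior variance and 0 with each library divided by its total, where Ccnd3 had limma adjusted p of 0.461, 0.288 and 0.431 and unadjusted p of 0.0045, 0.0152 and 0.0155; over its 8 alternatives the adjusted p ran from 0.00087 to 0.461. The count of pathway genes, 13, became 3 with a mean of at least 5 FPKM, 0 without the block (lowest adjusted p = 0.461, 13 unadjusted), 0 with one common prior variance (lowest adjusted p = 0.288, 13 unadjusted) and 2 with library totals. Over all tested genes the count that fell, 1006, became 225, 0, 0 and 37 in the same order. At an unadjusted p under 0.05, 1043 of all tested genes passed without the block and 1718 with one common prior variance. Library totals also turned the log2 changes of Ccne2, Cdk2 and Cdk4 to 0.0368, 0.24 and 0.0334. The sum of FPKM was lower in the Chd1-/- library of each set (466994 against 584520 in set 1, 518032 against 719549 in set 2). In the relative comparison the counts stayed at 0 under all alternatives run, the level trend included. The median log2 ratio of the members was -0.43 with set 1 alone and -0.32 with set 2 alone, with no test, as 1 pair leaves no residual degrees of freedom. Without read depth no counting error can be given for the low members Rb1 and Ccnd2.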
